A study of Mus musculus with 12 samples.

Results

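Ky and its neighbours at the Z-disc of skeletal muscle were followed in tibialis anterior (TA) muscles that expressed the human long noncoding RNA *FRAIL1*. The Z-disc is the plate at each end of the sarcomere in which the thin filaments of adjoining sarcomeres are crosslinked by α-actinin. It also anchors titin and carries proteins that sense strain and replace damaged filaments. *Ky*, the kyphoscoliosis gene, encodes a transglutaminase-like muscle protein that binds filamin C, and mice that lack it develop a curved spine and a myopathy. The genes were chosen by name with earlier results of these data known, among them that *Ky* was lower in the *FRAIL1* muscles, so its place among the members is no independent evidence. All 10 (*Ky*, *Flnc*, *Igfn1*, *Myot*, *Myoz1*, *Actn2*, *Actn3*, *Ldb3*, *Xirp1* and *Tcap*) were found among the 27179 mouse genes counted and passed the filter on low counts.

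RNA-seq was performed on 12 TA muscles from 6 male wild-type C57BL/6N mice that had arrived at 6 to 8 weeks of age. In each mouse, the TA of 1 leg received 10 μg of empty pcDNA3 plasmid (Control muscles, n = 6) and the TA of the other leg received 10 μg of the same plasmid carrying full-length *FRAIL1* (*FRAIL1* muscles, n = 6). Both groups were injected with hyaluronidase and electroporated, and RNA of the whole muscle was taken after 7 days, so the values can include fibers that took up no plasmid as well as cells other than muscle fibers. The plasmid backbone carries the CMV promoter, which is not specific to muscle. *FRAIL1* is human and is not among the mouse genes counted, so its level was not measured here.

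Library totals lay between 44848322 and 60527385 counts, and the 10 Z-disc genes held between 1515 (*Igfn1*) and 671512 (*Actn3*) counts in any 1 muscle, so the spread between muscles rather than counting limits their values. Levels are given as CPM, counts scaled to a common library total with TMM factors. Markers of mature fast fibers dominated every library, with a sum over 8 genes of 170376 to 198793 CPM in Control and 126889 to 181119 CPM in *FRAIL1* muscles (1 of 8, *Ckm*, was called lower), and no marker was at 0 in any muscle. The summed markers of regenerating fibers and satellite cells lay at 167 to 217 CPM in Control and 330 to 1558 CPM in *FRAIL1* muscles (5 of 7 called higher), those of slow fibers at 153 to 265 CPM and 237 to 616 CPM (4 of 6 called higher), and those of fibroblasts at 913 to 1738 CPM and 1843 to 4825 CPM (0 of 5 called). Macrophage markers summed to 76.7 to 114 CPM and 96.9 to 221 CPM (0 of 6 called), endothelial markers to 323 to 377 CPM and 254 to 333 CPM (1 of 4, *Tek*, called lower), and smooth muscle markers to 148 to 218 CPM and 163 to 191 CPM (0 of 4 called). *FRAIL1* muscle 5 stood apart, with the lowest fast fiber sum and the highest sums for regenerating fibers, slow fibers and fibroblasts, and the members' fold changes, the counts of calls and the called genes named from other lists are also given without both muscles numbered 5 where these moved. In whole muscle, fewer cells of a type and less RNA per cell cannot be told apart.

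*Ky* was the member whose level differed between the groups past the threshold (1 of 10 genes with a Benjamini-Hochberg adjusted p under 0.05, by the quasi-likelihood test of edgeR). Of the 15502 genes tested, 6.28% were called, with 1.85% of the genes tested called lower in the *FRAIL1* muscles and 4.43% called higher. With muscles of 1 mouse treated as a block, 2 of 10 members were called, *Ky* and *Actn3*, both lower, where the block called 14.1% of all genes, 6.62% as lower and 7.48% as higher. The median log2 fold change was -0.14 over the 10 members and 0.0096 over all genes tested, and 7 of 10 members had a negative value. Unadjusted p-values under 0.05 were found for 4 of 10 members, against 27.7% of all genes. The same 4 genes, *Ky*, *Actn3*, *Ldb3* and *Myot*, were lower in the *FRAIL1* muscle of all 6 mice, as were 11.7% of all genes. So were 5 of 8 markers of mature fast fibers and 16 of the 64 genes tested from the other Z-disc lists described below. No member had 6 *FRAIL1* values that all lay outside the Control range, a separation found in 4.88% of all genes (1.77% below and 3.12% above the Control range).

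The upstream sequences of 3 members are shown because *Ky* was called lower while *Actn2* and *Igfn1* had the highest log2 fold changes among the members. They are the 250 bases before a RefSeq transcript start (build GRCm38.p6), at chr9:102505888-102506137 on the plus strand for *Ky*, at chr13:12340733-12340982 on the minus strand for *Actn2* and at chr1:136006343-136006592 on the minus strand for *Igfn1*, and 5 of the 10 members had such a window. The *Ky* window overlaps the annotated span of the gene, since another transcript starts farther upstream, and so does that of *Igfn1*. Motifs were searched on both strands, and capitals mark E-boxes (CANNTG). This broad pattern includes, but is not limited to, the letters bound by myogenic factors such as MyoD, and binding was not measured.
Ky: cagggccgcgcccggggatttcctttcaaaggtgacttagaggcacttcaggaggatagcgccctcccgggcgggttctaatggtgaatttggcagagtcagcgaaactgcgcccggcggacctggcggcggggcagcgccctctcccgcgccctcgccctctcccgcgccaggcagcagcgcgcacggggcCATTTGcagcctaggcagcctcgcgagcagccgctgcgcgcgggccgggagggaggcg
Actn2: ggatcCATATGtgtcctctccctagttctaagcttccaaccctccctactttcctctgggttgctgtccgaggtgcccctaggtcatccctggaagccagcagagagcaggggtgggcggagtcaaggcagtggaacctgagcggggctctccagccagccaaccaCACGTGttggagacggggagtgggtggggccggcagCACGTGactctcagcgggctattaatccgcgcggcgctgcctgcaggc
Igfn1: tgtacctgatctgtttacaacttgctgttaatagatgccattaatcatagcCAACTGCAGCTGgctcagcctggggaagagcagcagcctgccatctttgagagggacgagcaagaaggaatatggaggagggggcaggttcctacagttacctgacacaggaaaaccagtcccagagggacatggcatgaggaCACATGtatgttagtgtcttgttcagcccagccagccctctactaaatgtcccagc
The *Ky* window holds 1 E-box and the windows of *Actn2* and *Igfn1* hold 3 each. Of 32851 windows of this length, 66.2% hold at least 1 E-box, and the share that holds 3 was not counted. The windows of the other members that had one, *Flnc* (log2 fold change 0.13) and *Ldb3* (-0.21), hold 0 E-boxes. No link between E-boxes and fold changes was tested. In the *Ky* window the match starts 58 bases before the transcript, and in that of *Actn2* a pair of identical matches starts 84 and 48 bases before it. None of the 3 windows holds an MCAT (CATTCC, found in 12.6% of windows), MEF2 (1.69%) or CArG (1.47%) match. In *Ldb3*, a CArG match, the letters bound by serum response factor, lies within this distance. In *Flnc* an MCAT match does so for 1 transcript start, and the window of its other start holds none.

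*Ky* (Gene ID 16716, chromosome 9 of GRCm38, 102505755 to 102546247) was lower in the *FRAIL1* muscles. Its level was 314 to 396 CPM in Control muscles, with a median of 339, and 170 to 314 CPM in *FRAIL1* muscles, with a median of 261. Of the *FRAIL1* muscles, 5 lay below the lowest Control muscle, and muscle 2, at 313.7 CPM, lay just above that muscle's 313.5 CPM. The mean fell from 347 ± 29.9 CPM to 256 ± 47.6 CPM (SD, n = 6 each), a log2 fold change of -0.44 with a standard error of 0.114 and a 95% interval of -0.68 to -0.20 (adjusted p = 0.0369 by edgeR). Within mice, the log2 difference lay between -0.26 and -0.55 in 5 mice and was -0.94 in mouse 5. Without both muscles numbered 5 it was -0.36 with an adjusted p of 0.0152. The summed fast fiber markers were lower in all 6 mice too, by 0.066 to 0.65 on the log2 scale, and *Ky* was lower than this sum by a further 0.065 to 0.43 in all 6 mice. Single genes of the sum had log2 fold changes from 0.14 for *Myh1* to -0.43 for *Myh4*, so *Ky* did not fall clearly beyond each of them. The call was lost when any 1 of the 6 Control muscles, or *FRAIL1* muscle 1, 4 or 6, was left out (adjusted p between 0.0568 and 0.0823, log2 fold change between -0.47 and -0.40), while it held without *FRAIL1* muscle 2, 3 or 5. These fits had no mouse block. In those that lost the call, the number of calls among all genes fell as well, as given below. All 11 other settings, among them the block (adjusted p = 0.0121), kept *Ky* past the threshold.

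**Figure D1:**
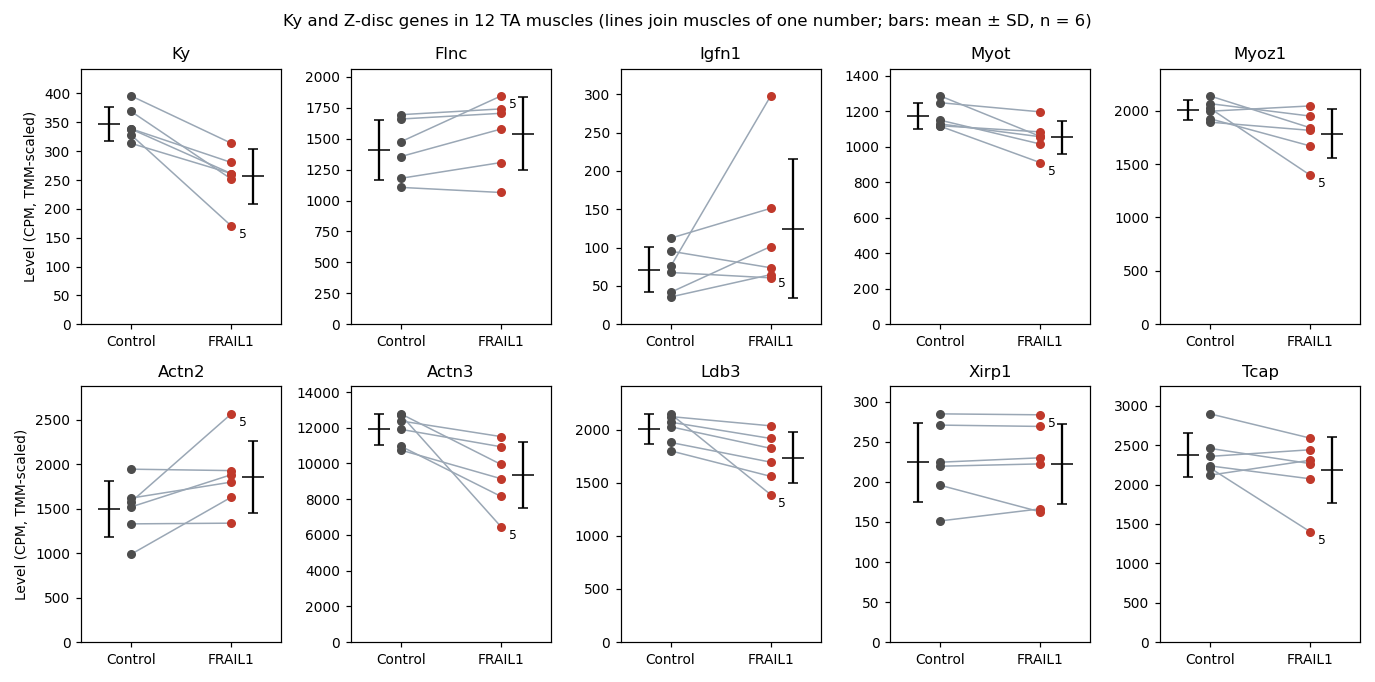
Level of each of the 10 genes in CPM (vertical axes from 0) in the 6 Control and 6 FRAIL1 muscles. Points are muscles, lines join muscles of 1 number, bars are mean ± SD (n = 6), and the FRAIL1 muscle numbered 5 is marked. Ky, Actn3, Ldb3 and Myot are lower at the FRAIL1 end of all 6 lines, and 1 FRAIL1 muscle lies far above the others for Igfn1, at 298 CPM.

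No call was made for *Flnc*, *Igfn1* or *Xirp1*, whose products bind Ky or, for Xin, filamin C. *Flnc* (Gene ID 68794, chromosome 6) encodes filamin C, an actin crosslinker of the Z-disc that unfolds under strain. It measured 1106 to 1694 CPM in Control muscles, with a median of 1416, and 1065 to 1846 CPM in *FRAIL1* muscles, with a median of 1642. The groups overlapped, the *FRAIL1* muscle was the lower one in 1 of 6 mice, and the log2 fold change was 0.13 (95% interval -0.17 to 0.42, adjusted p = 0.589), or 0.077 without both muscles numbered 5. *Igfn1* (Gene ID 226438, chromosome 1), whose product has immunoglobulin and fibronectin domains and was found as a Ky-binding protein, ranged from 35.6 to 112 CPM (median 71.5) in Control and from 60.5 to 298 CPM (median 87.6) in *FRAIL1* muscles. This was the widest spread of any member: mouse 2 gained 1.98 on the log2 scale while mouse 1 lost 0.37 and mouse 4 lost 0.16. The log2 fold change of 0.81 had a standard error of 0.437 (adjusted p = 0.253), and without *FRAIL1* muscle 2 it was 0.34 (adjusted p = 0.533) and without both muscles numbered 5 it was 0.80. *Xirp1* (Gene ID 22437, chromosome 9) encodes Xin, an actin-binding repeat protein that binds filamin C and gathers at sites of fiber damage. It lay between 151 and 285 CPM (median 222) in Control and between 163 and 284 CPM (median 226) in *FRAIL1* muscles. These ranges nearly coincide, and the log2 fold change was -0.013 with a 95% interval of -0.38 to 0.35 (adjusted p = 0.970).

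The α-actinins, the crosslinkers that hold the thin filaments in the Z-disc, had log2 fold changes of opposite sign. *Actn3* (Gene ID 11474, chromosome 19 of GRCm38, 4861216 to 4877909) is the form of fast glycolytic fibers. Its level ranged from 10749 to 12777 CPM in Control muscles, with a median of 12145, and from 6462 to 11505 CPM in *FRAIL1* muscles, with a median of 9548. Of the *FRAIL1* muscles, 4 lay below every Control muscle and the lowest was muscle 5. The means were 11916 ± 879 CPM and 9359 ± 1861 CPM (SD, n = 6 each), a difference that did not pass the threshold (log2 fold change -0.35, standard error 0.120, adjusted p = 0.0819). With the mouse as a block it passed, with an adjusted p of 0.0472. It was lower in 6 of 6 mice, by 0.11 to 0.43 in 5 mice and by 0.98 in mouse 5 (log2), and without both muscles numbered 5 the log2 fold change was -0.25 (adjusted p = 0.121, and 0.00773 with the block). Leaving out *FRAIL1* muscle 3 alone also brought it past the threshold (adjusted p = 0.0324). *Actn2* (Gene ID 11472, chromosome 13 of GRCm38, 12269426 to 12340732), the form found in all fiber types and in heart, ranged from 990 to 1947 CPM (median 1551) in Control and from 1339 to 2569 CPM (median 1843) in *FRAIL1* muscles. The highest value was again that of muscle 5, and Control muscle 1 was the lowest of its group. Its estimate of 0.31 (log2 fold change, standard error 0.161) missed the threshold (adjusted p = 0.224), and the *FRAIL1* muscle was higher in 5 of 6 mice. Without both muscles numbered 5 it was 0.21.

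The proteins that dock on α-actinin and filamin had log2 fold changes closer to 0 than that of *Ky*. *Ldb3* (Gene ID 24131, chromosome 14), which encodes the PDZ-LIM protein ZASP that binds α-actinin, measured 1799 to 2147 CPM (median 2047) in Control and 1387 to 2035 CPM (median 1758) in *FRAIL1* muscles. *Myoz1* (Gene ID 59011, chromosome 14), the calsarcin of fast fibers that ties calcineurin to the Z-disc, measured 1893 to 2138 CPM (median 2009) and 1396 to 2044 CPM (median 1828). *Myot* (Gene ID 58916, chromosome 18), which encodes myotilin, a binder of α-actinin, filamin C and actin, measured 1115 to 1286 CPM (median 1139) and 910 to 1196 CPM (median 1057). In each of these 3 genes *FRAIL1* muscle 5 was the lowest and *FRAIL1* muscle 3 the highest of its group, and 3, 4 and 5 *FRAIL1* muscles, in this order, lay below the lowest Control muscle. The log2 fold changes were -0.21 for *Ldb3* (adjusted p = 0.151), -0.17 for *Myoz1* (adjusted p = 0.212) and -0.16 for *Myot* (adjusted p = 0.174), and the 95% intervals reached no lower than -0.40, -0.35 and -0.31. Their standard errors, 0.0911, 0.0850 and 0.0725, were the smallest among the members. *Tcap* (Gene ID 21393, chromosome 11), which encodes the cap that joins the ends of titin molecules, measured 2119 to 2897 CPM (median 2297) in Control and 1401 to 2589 CPM (median 2287) in *FRAIL1* muscles. Apart from muscle 5, at the lower end of its group, the *FRAIL1* muscles spread over much the same range as the Control muscles, and the log2 fold change was -0.13 (adjusted p = 0.542). Without both muscles numbered 5 the log2 fold changes of *Ldb3*, *Myoz1*, *Myot* and *Tcap* were -0.14, -0.11, -0.14 and -0.050. Set against the summed fast fiber markers, each of these 4 genes was the lower one in 1 of 6 mice. Their mean log2 differences from that sum were 0.032, 0.073, 0.091 and 0.10 in the same order. *Actn3* was lower than the sum in 5 of 6 mice, with a mean of -0.12.

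Per kilobase of exon, which allows genes to be compared, the mean level in Control muscles was highest for *Actn3*, at 4107 ± 303 CPM per kb (SD, n = 6), and lowest for *Igfn1*, at 7.93 ± 3.31. *Tcap* followed *Actn3* at 2510 and *Myoz1* came next at 1060. *Myot* at 531, *Actn2* at 395 and *Ldb3* at 329 formed the middle of the order, and the ranges of *Myot* and *Actn2*, and those of *Actn2* and *Ldb3*, overlapped. *Flnc* at 150, *Ky* at 59.1 and *Xirp1* at 38.5 followed. All other neighbours in the order had ranges that did not overlap. No exon of a member overlapped another gene, and no member transcript had a copy of at least 98% identity over 100 bases.

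Ratios within a muscle do not depend on the scaling of the library. The ratios of 4 pairs of related genes were compared, each as log2 counts per exon base, by an exact two-sided permutation test over all splits of the 12 muscles into 6 and 6, with adjustment over the 4. The ratio of *Actn3* to *Actn2* was 7.37 to 16.9 (median 10.3) in Control and 3.29 to 10.7 (median 7.16) in *FRAIL1* muscles. In 6 of 6 mice the ratio was the lower one on the *FRAIL1* side, with a log2 mean of 3.41 ± 0.398 in Control and 2.72 ± 0.592 in *FRAIL1* muscles (SD, n = 6 each), a difference of -0.68 (exact permutation p = 0.0325, adjusted p = 0.0649). *Myoz1* was set against *Myoz2*, the calsarcin of slow fibers and heart, and this ratio was 46.6 to 122 (median 95.1) in Control and 30.6 to 92.3 (median 64.7) in *FRAIL1* muscles. It too was lower in 6 of 6 mice (log2 difference -0.60, exact permutation p = 0.0758, adjusted p = 0.101). The ratio of *Xirp1* to *Xirp2*, the other Xin repeat gene, ranged from 0.165 to 0.338 (median 0.240) and from 0.202 to 0.467 (median 0.292), and was higher in 6 of 6 mice, by very little in mouse 6 (log2 difference 0.25, exact permutation p = 0.297, adjusted p = 0.297). *Ky* to *Flnc* ranged from 0.327 to 0.536 (median 0.363) in Control and from 0.148 to 0.392 (median 0.264) in *FRAIL1* muscles, with the lower value on the *FRAIL1* side in 6 of 6 mice (log2 difference -0.58, exact permutation p = 0.0325, adjusted p = 0.0649).

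No ratio passed the threshold after adjustment, and in all 4 the groups overlapped. When signs were flipped within mice instead, each had an exact permutation p of 0.03125, which is the smallest that 6 mice allow, with the same value after adjustment. The lowest *FRAIL1* value of 3 of the ratios, and the highest of *Xirp1* to *Xirp2*, was that of muscle 5. Without both muscles numbered 5 the log2 differences were -0.49, -0.39, 0.21 and -0.44 in the order above (exact permutation test, adjusted p = 0.190, 0.286, 0.294 and 0.190). Leaving out Control muscle 6, which had the lowest *Actn3* to *Actn2* and *Myoz1* to *Myoz2* ratios of its group, gave an adjusted p of 0.0433 for both (exact permutation test, differences of -0.79 and -0.78), and leaving out *FRAIL1* muscle 2 gave 0.0390 for *Actn3* to *Actn2* and for *Ky* to *Flnc* (differences of -0.82 and -0.68). In these muscles the summed slow fiber markers lay at 153 to 265 CPM in Control and 237 to 616 CPM in *FRAIL1* muscles. The sum was highest in muscle 5, but the single markers did not move together. While 4 of 6, among them *Tnni1* and *Tnnt1*, were called higher, *Myh7* and *Myl3* were not called. These 2 had their lowest *FRAIL1* values in muscle 5, at 1.48 and 8.04 CPM. The part of the slow fiber markers in the ratios was not tested.

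**Figure D2:**
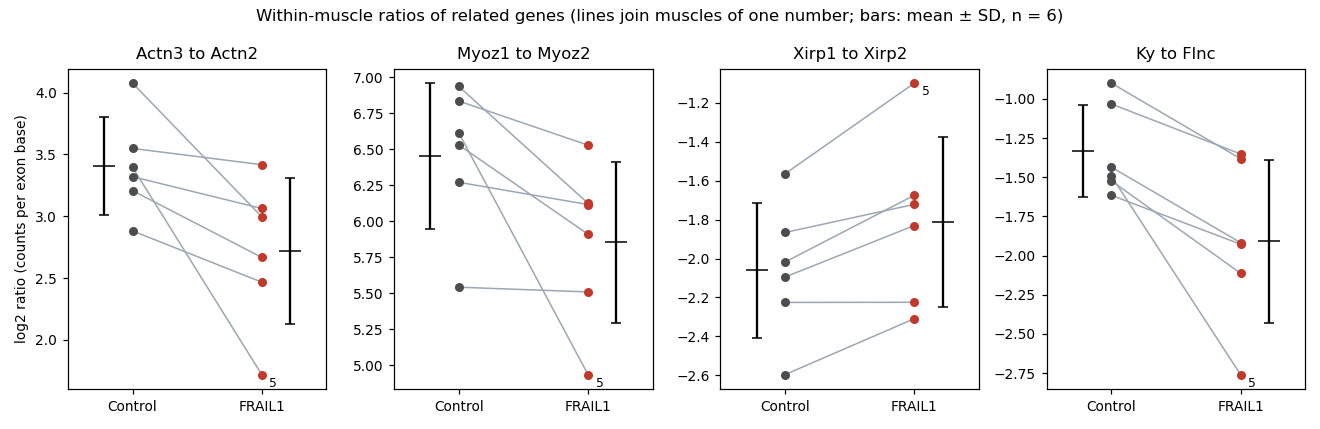
Ratios of related genes within each muscle, as log2 of counts per exon base (axes do not start at 0). Points are muscles, lines join muscles of 1 number, bars are mean ± SD (n = 6), and the FRAIL1 muscle numbered 5 is marked. Actn3 to Actn2, Myoz1 to Myoz2 and Ky to Flnc are lower on the FRAIL1 side in 6 of 6 mice and Xirp1 to Xirp2 is higher in 6 of 6, with overlapping groups.

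Other genes of the Z-disc and of the complexes around it were read from 9 lists with 65 genes, of which 64 were tested (*Nebl* was not). Of these, 7 were called higher and 1 was called lower, with a median log2 fold change of 0.018. The 8 calls among 64 genes stand beside the 6.28% called among all genes. With the mouse as a block 19 were called, 11 higher and 8 lower, where the block called 14.1% of all genes (7.48% higher and 6.62% lower). The number was 4 or 5 when any 1 Control muscle or *FRAIL1* muscle 1 or 4 was left out. It was 7, 13 and 18 when *FRAIL1* muscle 6, 2 or 3, in this order, was left out, and 10 without both muscles numbered 5. The number of calls among all genes moved alongside, from 974 to between 364 and 537 when any 1 Control muscle or *FRAIL1* muscle 1 or 4 was left out, to 601, 1579 and 2110 without *FRAIL1* muscle 6, 2 or 3, and to 871 without both muscles numbered 5.

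Among the genes of chaperone-assisted selective autophagy, the route by which strained filamin is cleared, 2 of 8 rose and both were small heat shock proteins. *Hspb8*, the partner of the cochaperone Bag3, measured 367 to 492 CPM (median 480) in Control and 621 to 875 CPM (median 703) in *FRAIL1* muscles. All 6 *FRAIL1* values lay above all 6 Control values, and the mean rose from 450 ± 54.9 to 737 ± 109 CPM (SD, n = 6 each; log2 fold change 0.71, standard error 0.105, adjusted p = 0.00271, edgeR). *Hspb7*, the muscle form that binds filamin C, rose from 229 to 438 CPM (median 380) to 486 to 659 CPM (median 553), again without overlap (log2 fold change 0.67, adjusted p = 0.0145). *Bag3* itself had a log2 fold change of 0.069 (adjusted p = 0.534). *Hspb1* had a value of 0.47 and was higher in 6 of 6 mice without passing the threshold (adjusted p = 0.146, and 0.0064 with the block), and pseudogenes share most of its transcript.

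Of the PDZ-LIM relatives of *Ldb3*, 2 of 6 rose. *Pdlim3*, the α-actinin-associated LIM protein, measured 504 to 568 CPM (median 556) in Control and 634 to 842 CPM (median 730) in *FRAIL1* muscles, without overlap (log2 fold change 0.42, standard error 0.0753, adjusted p = 0.00889). *Pdlim4* was much scarcer, at 5.48 to 7.24 CPM (median 6.00) and 6.16 to 13.0 CPM (median 8.89), and just passed (log2 fold change 0.54, adjusted p = 0.0469). Among the Xin and myotendinous adaptors 1 of 5 rose, *Pgm5*, which encodes aciculin, a binder of filamin C and Xin. It went from 21.1 to 26.6 CPM (median 24.5) to 33.5 to 57.4 CPM (median 37.7), with no overlap (log2 fold change 0.74, standard error 0.113, adjusted p = 0.00328). *Xirp2* had a log2 fold change of -0.26 (adjusted p = 0.0706, and 0.0275 with the block). *Xirp2*, *Bag3*, *Hspb1*, *Synpo2* and *Sqstm1* stand outside the rule for naming genes and were chosen after their values were seen.

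In the desmin, plectin and costamere list 1 of 14 rose and 1 fell. *Synm*, which encodes the intermediate filament protein synemin, fell from 636 to 772 CPM (median 751) to 321 to 634 CPM (median 519). The highest *FRAIL1* value, 634.4, lay just under the lowest Control value, 635.8, and on the log2 scale the gene fell by 0.49 with a standard error of 0.130 (adjusted p = 0.0418). Of a *Synm* transcript, 13.6% is shared with another gene model, *Gm45102*. *Itgb1bp2*, which encodes the chaperone melusin that binds integrin, rose from 114 to 130 CPM (median 123) to 127 to 248 CPM (median 161; log2 fold change 0.51, adjusted p = 0.0302). Of the 5 genes for the titin end and for Ky or Igfn1 binding proteins, *Obsl1*, the obscurin relative that ties titin at the M-band, was called higher (132 to 168 CPM, median 153, against 160 to 231 CPM, median 198; log2 fold change 0.35, adjusted p = 0.0424). Without both muscles numbered 5 the log2 fold changes were 0.62 for *Pgm5*, 0.68 for *Hspb8*, 0.63 for *Hspb7*, 0.38 for *Pdlim3*, 0.45 for *Pdlim4*, 0.39 for *Itgb1bp2* and -0.42 for *Synm*, all still past the threshold. *Hspb8*, *Hspb7*, *Pdlim3* and *Pgm5* kept their calls in all 23 alternative settings. Leaving out 1 muscle at a time kept the call in 5 of 12 fits for *Itgb1bp2*, in 3 of 12 each for *Synm* and *Obsl1* and in 2 of 12 for *Pdlim4*, and *Obsl1* also lost it without both muscles numbered 5 (adjusted p = 0.0571).

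The other 4 lists held no called gene, and the 2 genes with the most counts in each stand for them. *Actn4* and *Flna*, the nonmuscle relatives of the α-actinins and filamin C, had log2 fold changes of -0.065 (adjusted p = 0.576) and 0.060 (adjusted p = 0.590). *Mypn*, the relative of myotilin, and *Myoz3* had values of -0.089 (adjusted p = 0.410) and -0.076 (adjusted p = 0.564). *Neb*, which encodes nebulin, the ruler of the thin filament, and the capping subunit *Capzb* had values of -0.17 (adjusted p = 0.167) and -0.081 (adjusted p = 0.426). Among calcineurin and NFAT genes the catalytic subunit *Ppp3cb* fell short of the threshold with -0.35 (adjusted p = 0.0609), was lower in 6 of 6 mice and passed with the block (adjusted p = 0.0118) or without both muscles numbered 5 (adjusted p = 0.0321), while the regulatory subunit *Ppp3r1*, which shares 53.4% of a transcript with *Wdr92*, had a value of 0.095 (adjusted p = 0.402).

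**Figure D3:**
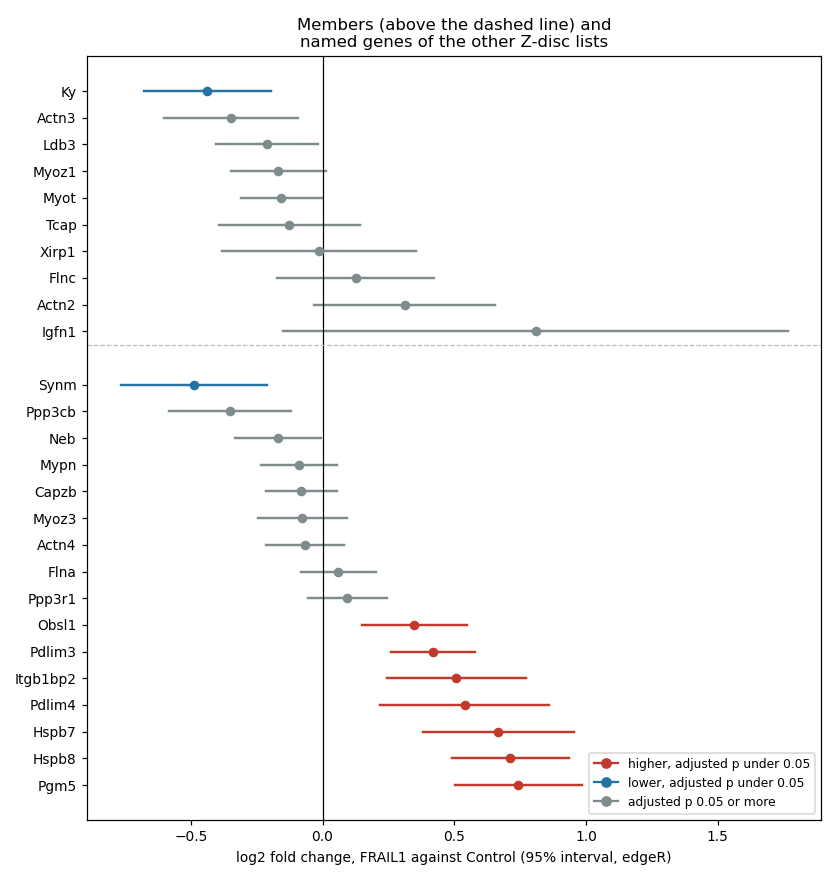
Log2 fold change of FRAIL1 against Control muscles with its 95% interval (edgeR's quasi-likelihood fit, horizontal axis) for the 10 members, above the dashed line, and the named genes of the other lists, below it. Colored genes have an adjusted p under 0.05: Ky and Synm lie below 0, and Obsl1, Pdlim3, Itgb1bp2, Pdlim4, Hspb7, Hspb8 and Pgm5 lie above it.

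The pattern of *Ky* over the 12 muscles was compared with that of every gene tested, as the root mean square difference of log2 CPM from each gene's own mean. Among the members the closest was *Actn3*, at 0.161, and the farthest *Igfn1*, at 0.841, where the median over all genes was 0.382. Among all genes tested, *Actn3* stood only at rank 356 by closeness to *Ky*. The closest genes of all were *Ank*, which encodes a pyrophosphate transporter, at 0.0899, the sorting receptor gene *Sorl1* at 0.0910, *Lrig1*, which encodes a restrainer of growth factor receptors, at 0.0935, *Adi1*, an enzyme gene of methionine salvage, at 0.0977, and the efflux pump gene *Abcb1b* at 0.0978. All 5 shared with *Ky* a low value in *FRAIL1* muscle 5. In *Ank* the level was 217 to 242 CPM (median 226) in Control and 99.8 to 200.1 CPM (median 179) in *FRAIL1* muscles, and in the other 4 genes the groups overlapped. These likenesses are a description over 12 muscles, which share their libraries and the contrast between the groups. Between members, *Myoz1* and *Ldb3* were closest to each other, at 0.0859, and *Igfn1* and *Actn2* farthest apart, at 0.940.

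**Figure D4:**
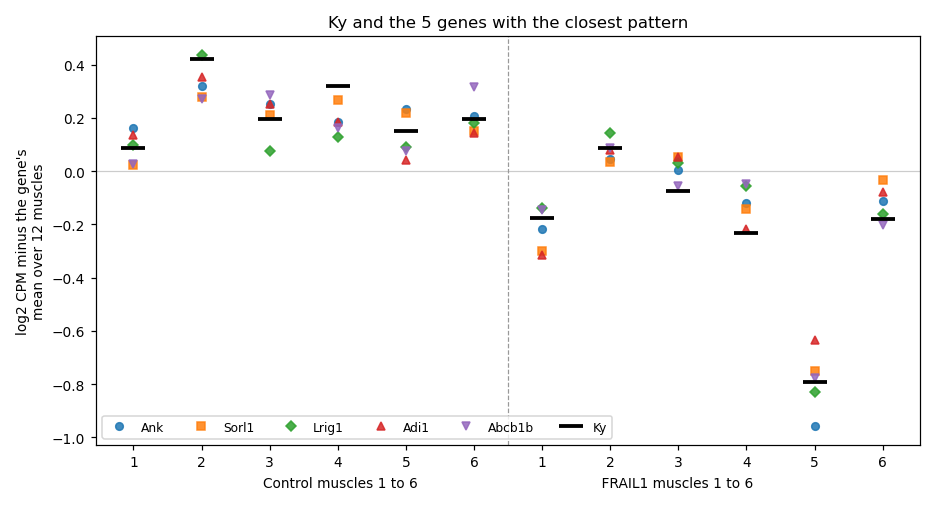
Log2 CPM minus each gene's mean over the 12 muscles (vertical axis) for Ky (black bars) and the 5 genes with the smallest root mean square difference from it (symbols), by muscle number. All 6 genes are lowest in FRAIL1 muscle 5, and most Control values lie above 0.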

How the data were processed

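mRNA libraries of 12 TA muscles were sequenced as paired-end reads. The authors trimmed the reads with Trimmomatic, mapped them to mm10 with STAR 2.7.8a and deposited whole-number counts per gene from featureCounts 2.0.1, without normalization. The strand setting is not given in the sources used here. Of 27179 listed genes, 25275 were matched to a symbol in the GRCm38 annotation. The others held 0.280% of the counts.

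Groups came from the labels. Counts were filtered with filterByExpr (15502 genes), scaled with TMM (factors 0.935 to 0.983 in Control and 0.965 to 1.19 in *FRAIL1* muscles) and compared between groups in edgeR 4.0.16 (R 4.3.3), with glmQLFTest on a robust quasi-likelihood fit. Benjamini-Hochberg adjustment ran over all genes tested, with a threshold of 0.05, so adjusted p-values in the text come from this fit unless another tool is named. No library was a copy of another (chi-square per degree of freedom of 14.5 or more within groups). The edgeR fit with and without the mouse block, and voom and the DESeq2 Wald test without the block, were tested on simulated data without a mouse effect. So was the exact test of the ratios.

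The design states that each mouse gave both muscles, and muscles of 1 number were taken as those of 1 mouse. Their deviations from the group means correlated at 0.236, 0.155, 0.264, 0.245, 0.0479 and 0.176 for numbers 1 to 6. The mean, 0.187 (against -0.0375 between numbers), was the highest of the 720 possible pairings. The muscles numbered 5 were related least.

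Named genes were all members, the called genes of each other list (4 at most, or else the 2 with the most counts) and the 5 genes closest to *Ky*. The members and lists were chosen with earlier results of these data known, and leaving out both muscles numbered 5 was chosen after seeing the data. Alternatives were the mouse as a block, other scalings and filters, the Wald test of DESeq2 1.42.0, voom with quality weights of limma 3.58.1 and each muscle left out in turn without the block. Copies of transcripts were searched with BLAST 2.17.0. Upstream sequences are those of RefSeq. Protein sequences were not used here. Exon usage and proteins were not analysed here.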

Additional observations from a re-analysis of the deposited data

Results flagged for a closer look

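Single muscles far from the rest of their group were searched for among the members, the named genes, the genes closest to *Ky* and the ratios. In 6 of the 70 groups of 6 muscles the gap between the extreme muscle and the next exceeded Dixon's 95% critical value for 6 samples, where chance gives about 3.5. No member was among them. *FRAIL1* muscle 5 was the extreme muscle in 4 of the 6. It had the highest level of *Pgm5* (57.4 CPM, the next at 40.3), of *Actn4* (88.5 CPM, the next at 76.4) and of *Ppp3r1* (219 CPM, the next at 196), and the lowest of *Ank* (99.8 CPM, the next at 167). Control muscle 5 had the highest Control level of *Pdlim4* (7.24 CPM, the next at 6.05), and Control muscle 2 that of *Lrig1* (113 CPM, the next at 94.9).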

How the results depend on the processing

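The 3 alternative scalings and 2 alternative filters left the members' calls and directions as they were. Of the 10 members, 1 was called in the fit reported. The replicate block, the DESeq2 Wald test and voom with quality weights each called 2, DESeq2 with the block called 5 and the block without both muscles numbered 5 called 2. The other Z-disc lists went from 8 calls to 19, 19, 16, 32 and 22 in these settings, and all genes from 974 calls to 2186, 2211, 1836, 2875 and 2305. Of the 974, 936 were also called with the block. *Actn3* passed the threshold in all 5 of them, with log2 fold changes of -0.37, -0.36, -0.33, -0.38 and -0.25. With the block, *Ppp3cb* and the 5 genes closest to *Ky* passed as well, as did *Xirp2* and *Hspb1*, which stand outside the naming rule. No other member or named gene of the Z-disc lists changed sides. DESeq2 with the block also called *Ldb3* (-0.22), *Myot* (-0.17) and *Actn2* (0.31). On simulated data without a mouse effect, the DESeq2 Wald test run without the block made more false calls than its threshold allows. Calls made by that fit alone therefore carry less weight. DESeq2 with the block was not simulated, so its rate of false calls is not known. With sign flips within mice as the block, the ratios kept their values of -0.68, -0.60, 0.25 and -0.58 and passed the threshold at the smallest p the design allows.

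With 1 muscle left out at a time and no mouse block, between 0 and 2 members, 4 and 18 other list genes and 364 and 2110 genes in all were called. The number of members called was 0 without any 1 Control muscle or without *FRAIL1* muscle 1, 4 or 6. *Ky* had a log2 fold change of -0.51 to -0.34 and passed in 3 of 12 fits, and *Actn3* one of -0.42 to -0.26, past the threshold in 1 of 12. *Xirp1* lay between -0.11 and 0.066 and changed sign in 4 of 12 fits, with no adjusted p under 0.711. The log2 ratio differences ranged from -0.82 to -0.48 for *Actn3* to *Actn2*, from -0.78 to -0.42 for *Myoz1* to *Myoz2*, from 0.11 to 0.35 for *Xirp1* to *Xirp2* and from -0.69 to -0.41 for *Ky* to *Flnc*. The cause of these changes was not tested. Depth does not limit the members. The spread between 6 muscles of a group does, most of all for *Igfn1*.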
